A study of Mus musculus with 18 samples.

Results

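The genes described here encode the enzymes of glycolysis, the pentose phosphate pathway and the citrate cycle, together with the steps that bring pyruvate into mitochondria, use citrate outside them or turn it into itaconate. The list held 46 genes chosen by symbol, and the probe set with the highest mean over the 18 arrays stood for each gene. Of the 46, 41 were measured, among 12393 genes tested in the series. No probe set was named for Hk3, Gpi1, Eno1 or G6pdx in the annotation used here. Gapdh was covered only by probe sets that carry several symbols and by the manufacturer's control probe sets. It was therefore kept out of the tests and is described by its control signals and a probe set with several symbols.

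Bone marrow of C57BL/6 mice aged 4 to 6 weeks was the source of the macrophages, which were cultured in medium conditioned by L929 cells, a fibroblast line that secretes the growth factor of macrophages. Their RNA was measured on Affymetrix arrays in 6 groups of 3. CON cells received neither particles nor lipopolysaccharide (LPS, a component of the bacterial cell wall), and their label gives no times. LPS cells had 24 h of plain medium, followed by 4 h with 10 ng/ml LPS from Escherichia coli O111:B4. Silica and SPIO cells stood for 24 h with amorphous silica particles of 50 nm or iron oxide particles of 33 nm, which were washed off before 4 h in fresh medium. Silica-LPS and SPIO-LPS cells had the same particles and then 4 h of 10 ng/ml LPS. The labels give 25 mg/ml for both particles, a unit that could not be checked here. Arrays of 1 group are named biological replicates, with no word on whether each had its own mouse, so each p-value here reflects how far these 18 cultures scatter.

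Glycolysis splits glucose into pyruvate in the cytosol, and pyruvate then either becomes lactate or enters mitochondria, where the citrate cycle oxidises it. The pentose phosphate pathway branches off early in glycolysis and yields NADPH, which feeds antioxidant defence and the macrophage's oxidative burst, and sugar phosphates for nucleotides. Macrophages activated by LPS are known for a high use of glucose, for a citrate cycle that is interrupted at isocitrate dehydrogenase and succinate dehydrogenase, and for the enzyme Acod1, which converts a citrate cycle intermediate to itaconate.

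RefSeq promoters of 300 bases (build GRCm38.p6) matched 40 of the 41 measured genes by symbol, and Idh3a had no entry. They were searched on both strands for ACGTG, the core of the hypoxia response element, for TGACNNNGC, the core of the antioxidant response element, and for the motif of NF-kB, a factor known to be activated by LPS. The letters ACGTG also lie within CACGTG, which then counts on both strands. ACGTG occurred in 24 of 58 promoters of these genes (41.4%), against 19.6% of all 32851 promoters in the table. It was in 11 of 23 promoters of the genes of glycolysis and lactate formation (47.8%) and in 13 of 35 promoters of the others (37.1%). These counts take some sites more than once, because a gene such as Ogdh has several overlapping promoters. Counted by gene, 17 of 40 had ACGTG in any promoter. They were 9 of 14 genes of glycolysis and lactate formation (64.3%) and 8 of 26 others (30.8%). The share by gene over all genes is not given. A gene with more promoters also has more chances of a match, and the 14 genes had more promoters per gene than the 26. TGACNNNGC occurred in 9 of the 58 promoters (15.5%), against 12.4% of all promoters. The NF-kB motif was searched as a single pattern of 10 letters, found in none of the 58 and in 0.411% of all promoters. At so low a share, no match would be likely among 58 promoters in any case. The search therefore cannot show whether these genes lack NF-kB sites. Base composition was not matched between these sets, and a match is a description of letters. The promoters printed are those of 4 glycolytic genes with ACGTG and of Pgd, a gene of the pentose phosphate pathway with TGACNNNGC, because their signals recur in the comparisons. Each runs 5′ to 3′ along the gene's strand, and capitals mark the match on either strand, CACGT being ACGTG on the other strand. The Hk2 promoter lies at chr6:82774405-82774704 on the minus strand, that of Aldoc at chr11:78322823-78323122 on the plus strand, that of Pgk1 at chrX:106186850-106187149 on the plus strand, that of Ldha at chr7:46845554-46845853 on the plus strand and that of Pgd at chr4:149166033-149166332 on the minus strand.
Hk2: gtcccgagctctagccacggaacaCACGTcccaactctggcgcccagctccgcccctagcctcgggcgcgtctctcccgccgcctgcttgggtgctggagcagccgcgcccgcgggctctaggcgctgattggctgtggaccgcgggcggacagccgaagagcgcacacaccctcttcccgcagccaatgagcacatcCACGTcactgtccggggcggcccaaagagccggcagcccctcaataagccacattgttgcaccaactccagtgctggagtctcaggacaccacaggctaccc
Aldoc: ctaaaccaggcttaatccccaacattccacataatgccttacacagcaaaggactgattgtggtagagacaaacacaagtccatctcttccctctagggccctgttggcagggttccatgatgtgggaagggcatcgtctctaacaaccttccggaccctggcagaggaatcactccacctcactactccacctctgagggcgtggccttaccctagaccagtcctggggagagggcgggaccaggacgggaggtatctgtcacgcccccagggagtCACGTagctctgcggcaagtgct
Pgk1: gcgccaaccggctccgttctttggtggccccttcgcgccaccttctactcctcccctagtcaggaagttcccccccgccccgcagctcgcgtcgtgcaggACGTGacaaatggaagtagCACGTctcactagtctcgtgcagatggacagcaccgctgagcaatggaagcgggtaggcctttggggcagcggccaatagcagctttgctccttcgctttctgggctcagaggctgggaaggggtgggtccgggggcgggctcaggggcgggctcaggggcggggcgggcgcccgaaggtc
Ldha: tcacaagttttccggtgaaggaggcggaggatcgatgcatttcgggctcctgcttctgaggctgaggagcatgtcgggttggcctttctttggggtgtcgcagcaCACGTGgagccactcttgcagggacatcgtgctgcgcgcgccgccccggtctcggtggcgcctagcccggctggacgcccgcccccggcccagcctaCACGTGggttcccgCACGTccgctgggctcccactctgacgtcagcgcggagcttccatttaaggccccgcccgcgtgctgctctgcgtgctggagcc
Pgd: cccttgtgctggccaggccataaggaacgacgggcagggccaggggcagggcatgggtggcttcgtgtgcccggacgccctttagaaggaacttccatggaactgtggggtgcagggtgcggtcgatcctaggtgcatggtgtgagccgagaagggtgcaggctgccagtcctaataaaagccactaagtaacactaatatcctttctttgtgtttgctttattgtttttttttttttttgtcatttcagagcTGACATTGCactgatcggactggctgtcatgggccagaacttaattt
The windows of Hk2 and Pgk1 held 2 matches each, that of Aldoc 1 and that of Ldha 5. Aldoc, Ldha and Pgd each have 2 promoters in the table, the other one without the match. The matches shown for Aldoc and Pgd lie after the transcription start, at positions 27 and 3. They are thus in transcribed sequence and not upstream of the gene, and whether they act as elements was not tested. For Pgd the other promoter, chr4:149166656-149166955, lies upstream of the printed window. Whether the Pgd match falls in coding sequence was not checked.

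Arrays of a group correlated at 0.997 to 0.999 over probe sets, and the median log2 signal of an array was 6.23 to 6.27 with LPS and 6.35 to 6.43 without it. All 12 macrophage markers were measured, and their mean log2 signals in CON were 9.33 to 14.4. Of 14 fibroblast markers some were also bright, with mean log2 signals in CON from 2.90 (Lum) to 13.5 (Col1a2). Their summed linear signal mostly follows the brightest genes. It was 42818 to 43431 in CON, 34456 to 36084 in LPS, 45548 to 48188 in Silica and 35386 to 36414 in SPIO. With LPS the same sum was 35927 to 36220 in Silica-LPS and 28037 to 28954 in SPIO-LPS. Neutrophil markers (12 measured of 14) summed to 22685 to 24193 in CON, 24681 to 25075 in LPS, 16234 to 16898 in SPIO and 17842 to 18412 in SPIO-LPS. Sums of dendritic cell, lymphocyte and erythroid markers were at most 136. In such bulk RNA, fewer cells of a type and less RNA per cell cannot be told apart.

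LPS moved most of these genes, and it split the early steps of glycolysis. Acod1, the itaconate enzyme, rose by 7.05 on the log2 scale to near the top of the arrays' range, Pfkp and Hk2 more than doubled on the linear scale, and Idh1, the cytosolic isocitrate dehydrogenase that makes NADPH, fell 3.59-fold. The listed genes of the pentose phosphate pathway and most of those of the citrate cycle fell. At a limma adjusted p below 0.05, 7 of the 41 genes were higher and 28 lower in LPS than in CON, 85.4% in all, where 58.2% of all genes tested were called (22.2% higher and 36.1% lower). The median log2 difference was -0.30 over the 41 genes and -0.01 over all genes. Scaling by cyclic loess gave 11 higher and 23 lower genes and a median of -0.13 over the 41, so the balance of rises and falls depends on the scaling. At least 2-fold changes were called for 4 of the 41 (Acod1, Pfkp, Hk2 and Idh1), against 11.4% of all genes. The arrays of LPS and CON did not overlap for any of the 35 called genes. With 3 arrays per group a call nearly always brings this, and the share over all genes is not given here. In the same comparison 8 of 12 macrophage markers, 8 of 14 fibroblast markers and 5 of 12 neutrophil markers were lower, and 3, 3 and 4 higher, and their part in these results was not tested.

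Of 8 genes of upper glycolysis, 4 rose and 4 fell. Hk2, the hexokinase that can be induced and that commits glucose to the cell (probe set 1422612_at), read 9.83, 10.00 and 9.89 in CON and 10.92, 10.99 and 11.08 in LPS. All its LPS arrays were above all its CON arrays, with a log2 difference of 1.08 ± 0.069 (SE, n = 3 per group, limma adjusted p = 8.41e-10). Hk1, the constitutive hexokinase, was at 8.74, 8.74 and 8.85 in CON and at 8.89, 9.02 and 9.12 in LPS, a difference of 0.24 ± 0.057 (adjusted p = 0.00204). Phosphofructokinase catalyses the committed step of glycolysis, and its 3 genes went apart. Pfkp, the platelet-type subunit (1416069_at), had log2 signals of 8.62, 8.69 and 8.76 in CON and of 9.93, 10.04 and 9.99 in LPS. This was a rise of 1.29 ± 0.046 (2.45-fold, adjusted p = 5.02e-13). Pfkl, the liver-type subunit, read 6.62, 6.64 and 6.80 in CON against 7.37, 7 and 7.56 in LPS, a rise of 0.63 ± 0.11 with LPS arrays that spread widely. Pfkm, the muscle-type subunit, fell by 0.53 ± 0.090, from 7.43, 7.50 and 7.46 to 6.67, 7 and 7.12. The aldolases Aldoa and Aldoc, which split fructose 1,6-bisphosphate, fell by 0.28 ± 0.040 and 0.48 ± 0.067, and triose phosphate isomerase (Tpi1) fell by 0.34 ± 0.055.

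Among 6 genes of lower glycolysis and lactate formation, 1 rose and 3 fell. Phosphoglycerate kinase (Pgk1) rose by 0.13 ± 0.037 (adjusted p = 0.00797), the smallest difference among the rises. Pyruvate kinase (Pkm), the last enzyme of glycolysis, read 10.87, 10.93 and 11.01 in CON and 10.56, 10.54 and 10.64 in LPS, a fall of 0.36 ± 0.051 as log2 difference. Phosphoglycerate mutase (Pgam1) fell by 0.40 ± 0.037. The lactate dehydrogenase genes differed from each other. Ldha, the subunit that favours lactate formation and whose promoter held 5 matches to ACGTG, was at 11.59, 11.64 and 11.65 in CON and at 11.60, 11.56 and 11.69 in LPS. These ranges overlapped, and the difference was -0.01 ± 0.047 (adjusted p = 0.863), though with cyclic loess it was 0.14 and called. Ldhb, the other subunit, fell by 0.73 ± 0.053 (adjusted p = 4.32e-09), from 8.65, 8.69 and 8.84 to 7.93, 7.97 and 8.09. The manufacturer's 3′ Gapdh control, a readout of the enzyme between aldolase and Pgk1, had means of 12.48 ± 0.013 (SD, n = 3) in CON and 12.18 ± 0.040 in LPS. Its 5′ counterpart was at 11.79 ± 0.049 and 11.67 ± 0.014, so the 3′ minus 5′ gap, a sign of RNA quality, was 0.69 ± 0.039 in CON and 0.52 ± 0.050 in LPS. The part of this gap in the differences was not tested. The probe set that carries Gapdh among several symbols was at 12.74 ± 0.036 (SD, n = 3) in CON and 12.47 ± 0.1 in LPS.

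All 5 measured genes of the pentose phosphate pathway on the list were lower in LPS, and 4 with cyclic loess, with a median log2 difference of -0.57. Rpe, an epimerase gene of this pathway kept among the neighbouring genes described below, rose by 0.59 ± 0.048 (limma adjusted p = 1.85e-08). Taldo1 and Tkt encode transaldolase and transketolase, the enzymes that link the pathway back to glycolysis. Taldo1 (1425129_a_at) read 12.27, 12.31 and 12.38 in CON against 11.57, 11.59 and 11.65 in LPS, a fall of 0.72 ± 0.041 (adjusted p = 1.87e-10). Tkt was at 12.62, 12.63 and 12.66 in CON and at 11.99, 12.15 and 12.05 in LPS, a fall of 0.57 ± 0.044 (adjusted p = 8.7e-09). The isomerase gene Rpia fell by 0.74 ± 0.056 and the lactonase gene Pgls by 0.44 ± 0.047. Pgd, whose enzyme makes the second NADPH of the pathway (1436771_x_at), moved least, from 12.37, 12.42 and 12.47 to 12.21, 12.32 and 12.27. Its fall of 0.15 ± 0.042 (adjusted p = 0.00524) was not called with cyclic loess (-0.005, adjusted p = 0.934), nor in a fit on the CON and LPS arrays alone.

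Of 5 genes of pyruvate entry, 3 fell and 1 rose, and 1 fell and 1 rose with cyclic loess. The pyruvate dehydrogenase genes Pdha1, Pdhb and Dlat fell by 0.30 ± 0.041, 0.24 ± 0.041 and 0.26 ± 0.052, of which Pdhb and Dlat were not called with cyclic loess. Pdhb was also not called with the mean of its probe sets. Dld, the dehydrogenase subunit shared with other enzyme complexes, rose by 0.51 ± 0.050 (adjusted p = 2.21e-07). Pcx, which encodes pyruvate carboxylase and refills the citrate cycle, was at 4.94, 5.21 and 5.16 in CON and at 5.33, 5.17 and 5.02 in LPS, with overlapping ranges (adjusted p = 0.575).

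In the mitochondrial citrate cycle, 9 of 11 genes fell (7 with cyclic loess), while Cs (citrate synthase) and Dlst (a subunit of the 2-oxoglutarate dehydrogenase complex) had log2 differences of 0.00. With cyclic loess these last genes were higher, by 0.16 and 0.17. Fh1, fumarate hydratase, read 10.36, 10.36 and 10.40 in CON and 9.46, 9.45 and 9.53 in LPS, a fall of 0.89 ± 0.045 (1.85-fold, adjusted p = 4.22e-11). The subunit genes of NAD-linked isocitrate dehydrogenase fell by 0.27 ± 0.046 (Idh3a), 0.56 ± 0.062 (Idh3b) and 0.82 ± 0.047 (Idh3g). Idh3a was not called with the mean of its probe sets. Ogdh, Suclg1 and Mdh2 fell by 0.41 ± 0.075, 0.46 ± 0.049 and 0.40 ± 0.046, and Sucla2 and Suclg2 by 0.20 ± 0.040 and 0.28 ± 0.074.

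Outside the cycle, the NADP-linked and cytosolic enzymes gave 4 falls among 5 genes. Idh1 (1422433_s_at) had log2 signals of 12.29, 12.17 and 12.27 in CON and of 10.40, 10.43 and 10.36 in LPS. The gap of -1.84 ± 0.042 (adjusted p = 2.31e-15) was many times the spread within either group. Idh2, its mitochondrial counterpart, fell by 0.57 ± 0.053, from 8.99, 9.07 and 9.12 to 8.50, 8.52 and 8.46. Acly, ATP citrate lyase, which turns exported citrate into acetyl-CoA for lipids, was at 10.14, 10.25 and 10.15 in CON and at 9.43, 9.42 and 9.41 in LPS, a fall of 0.76 ± 0.050 (adjusted p = 1.45e-09). Mdh1 fell by 0.66 ± 0.12, with LPS arrays spread from 10.05 to 10.72. Me1, malic enzyme, another source of NADPH, was 0.15 ± 0.064 above CON and did not pass (adjusted p = 0.0577), though with cyclic loess it was called at 0.33 (adjusted p = 0.000111). Acod1 (1427381_at) read 6.74, 7.06 and 7.11 in CON and 14.05, 14.02 and 13.99 in LPS. The difference was 7.05 ± 0.098 (adjusted p = 8.61e-18), with LPS signals close to the highest value on the arrays (14.48 to 14.62), where little further rise could be seen.

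**Figure D1:**
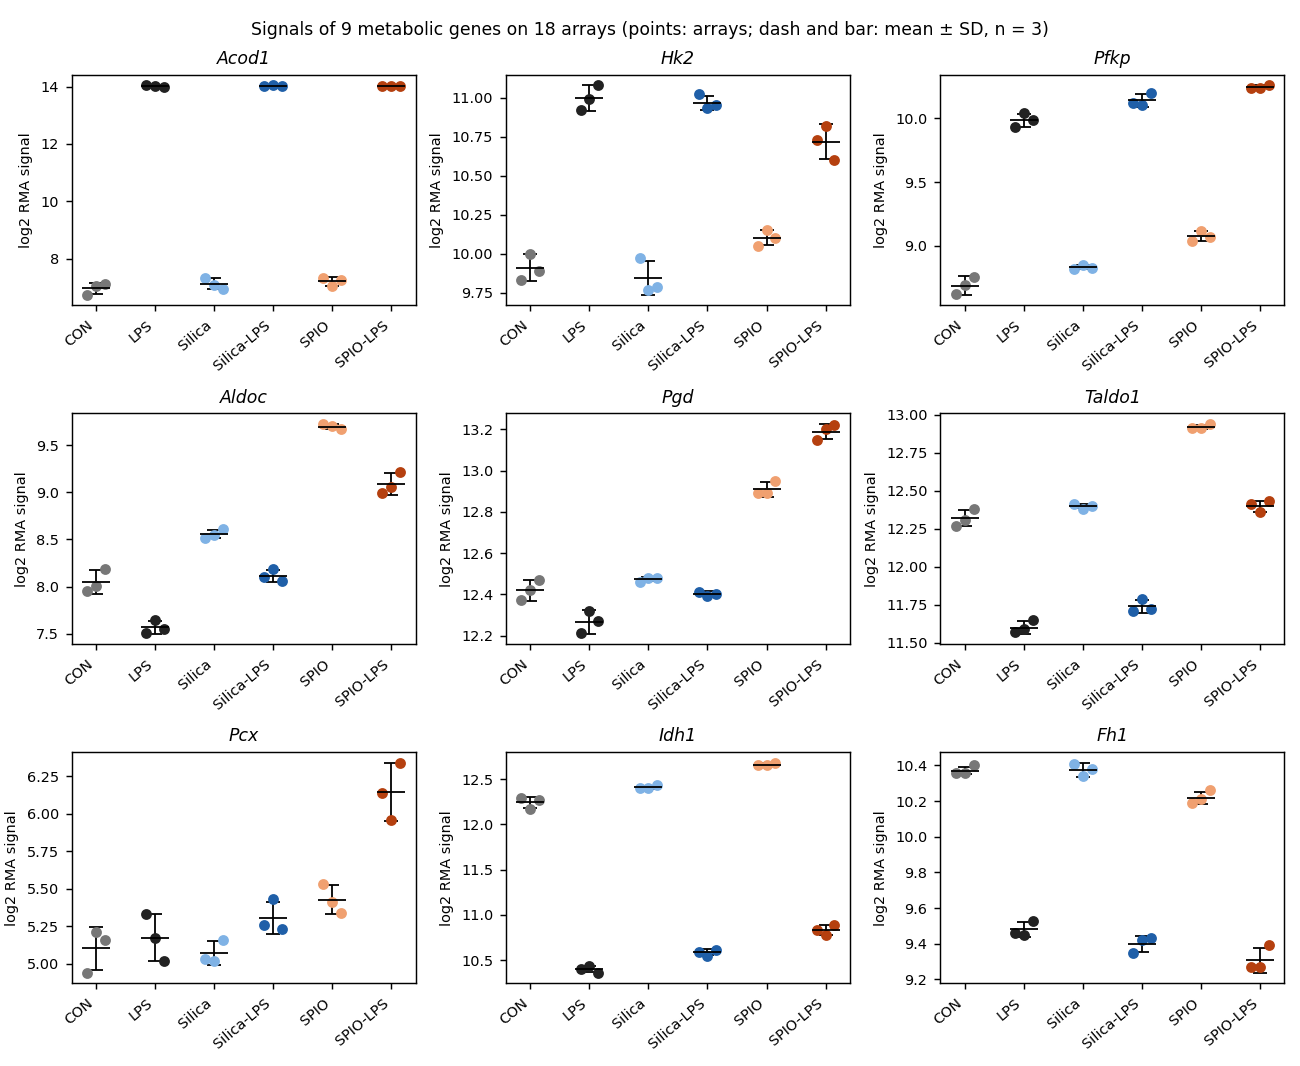
Log2 RMA signals of Acod1, Hk2, Pfkp, Aldoc, Pgd, Taldo1, Pcx, Idh1 and Fh1 on the vertical axes for the 6 groups on the horizontal axes; points are arrays, dashes and bars the mean ± SD of 3 arrays, and the vertical scale differs between panels. Acod1 stood at about 14 in all 3 groups with LPS, Aldoc was highest in SPIO (9.67 to 9.72), and Pgd and Pcx were highest in SPIO-LPS (13.15 to 13.22 and 5.96 to 6.34).

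After iron oxide without LPS, genes in every block of the list except Acod1 were higher. Aldoc, the aldolase otherwise known from brain, rose 3.13-fold, and the pentose phosphate genes Taldo1, Pgd, Rpia and Tkt rose between 1.30-fold and 1.51-fold. In SPIO against CON, 23 of the 41 genes were higher and 2 lower, 61.0% in all, where 33.8% of all genes were called (19.6% higher and 14.2% lower). Aldoc alone changed at least 2-fold, where 0.904% of all genes did. The median log2 difference was 0.19 over the 41 genes and -0.01 over all genes. Macrophage, fibroblast and neutrophil markers went the other way in the same comparison: 9 of 12, 9 of 14 and 9 of 12 were lower, and 2, 0 and 1 higher. Their part in these results was not tested.

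Aldoc (1451461_a_at) gave the clearest separation, at 7.95, 8.01 and 8.19 in CON and at 9.72, 9.70 and 9.67 in SPIO. The log2 difference was 1.65 ± 0.067 (n = 3 per group, limma adjusted p = 1.36e-10), and a second, dimmer probe set of the gene gave 1.69. Upper glycolysis had 5 rises among 8 genes and no fall. Aldoa, the main aldolase, read 12.04, 12.14 and 12.15 in CON against 12.50, 12.50 and 12.51 in SPIO, a rise of 0.39 ± 0.040. Pfkl and Pfkp rose by 0.58 ± 0.11 and 0.39 ± 0.046, Pfkp from 8.62 to 8.76 in CON to 9.04 to 9.12 in SPIO. Hk2 was at 10.05, 10.15 and 10.10 in SPIO, 0.19 ± 0.069 above CON (adjusted p = 0.0423), just within the threshold, while Hk1 differed by 0.05 ± 0.057 (adjusted p = 0.571).

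Lower glycolysis and lactate formation had 5 rises among 6 genes. Pgam1 read 10.75, 10.75 and 10.79 in CON and 11.31, 11.34 and 11.38 in SPIO, a rise of 0.58 ± 0.037 (adjusted p = 8.22e-09). Pkm rose by 0.36 ± 0.051, to 11.27, 11.32 and 11.32, and Pgk1 by 0.22 ± 0.037. Ldhb rose by 0.31 ± 0.053, to 9.05, 9.03 and 9.04. Ldha was at 11.52, 11.64 and 11.63 in SPIO, 1 array below and 2 within the CON range (adjusted p = 0.7). Eno2 was dim, with group means near 4, and its rise of 0.35 ± 0.13 had an adjusted p of 0.0458. The Gapdh controls were at 12.62 ± 0.031 (3′) and 12.15 ± 0.0089 (5′) in SPIO, against 12.48 ± 0.013 and 11.79 ± 0.049 in CON. The 3′ minus 5′ gap was thus 0.47 ± 0.026 in SPIO, while that of Actb was 0.66 ± 0.015 against 0.59 ± 0.017 in CON. The Gapdh probe set with several symbols moved less than either control, at 12.78 ± 0.031 (SD) in SPIO and 12.74 ± 0.036 in CON.

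In the pentose phosphate pathway, 4 of 5 genes rose, with a median of 0.40. Taldo1 was at 12.91, 12.91 and 12.94 in SPIO, above every CON array, with a rise of 0.60 ± 0.041 (1.51-fold, adjusted p = 1.81e-08). Pgd read 12.89, 12.89 and 12.95, a rise of 0.49 ± 0.042 (1.41-fold, adjusted p = 2.22e-07). All 4 of its probe sets were higher, by 0.47 to 0.69. Tkt was at 12.99, 13.00 and 13.06, 0.38 ± 0.044 above CON, and Rpia rose by 0.40 ± 0.056. Pgls differed by 0.08 ± 0.047 (adjusted p = 0.206).

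The mitochondrial genes moved less. Of 5 pyruvate entry genes 4 rose, Pdhb by 0.24 ± 0.041, Dld by 0.20 ± 0.050, Dlat by 0.17 ± 0.052 and Pcx by 0.33 ± 0.10. Of 11 citrate cycle genes 3 rose (Idh3b by 0.28 ± 0.062, Ogdh by 0.23 ± 0.075 and Cs by 0.13 ± 0.043) and 2 fell, Fh1 by 0.15 ± 0.045 and Idh3a by 0.13 ± 0.046. The probe sets of Idh3a disagreed, since another was called higher at 0.25, and Mdh1 also had probe sets called in both directions, so neither gene has a settled direction here. Idh1 read 12.65, 12.65 and 12.68 in SPIO, a rise of 0.42 ± 0.042 (adjusted p = 1.51e-06), and Acly rose by 0.15 ± 0.050. Idh2 (adjusted p = 0.994) and Me1 (0.0654) did not pass, and Acod1 was at 7.32, 7.05 and 7.27, 0.24 ± 0.098 above CON with overlapping ranges (adjusted p = 0.0772).

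Of the 25 calls, 16 remained whichever array was left out. The 9 others (Hk2, Eno2, Dlat, Pcx, Cs, Idh3a, Ogdh, Fh1 and Acly) had adjusted p between 0.0147 and 0.0458 with all arrays. Leaving out the first CON array had the largest effect, with 18 genes remaining: Pcx was then at 0.25 (adjusted p = 0.113), Ogdh at 0.16 (0.127), Hk2 at 0.15 (0.157), Acly at 0.13 (0.118), Cs at 0.10 (0.136), Idh3a at -0.13 (0.0868) and Eno2 at 0.38 (0.0667). Without the second CON array Eno2 was at 0.32 (0.127) and Cs at 0.14 (0.0517). Without the third CON array Dlat was at 0.11 (0.117), Hk2 at 0.18 (0.0986), Eno2 at 0.34 (0.0939), Idh3a at -0.10 (0.142) and Acly at 0.13 (0.0979). The losses without the first SPIO array were Fh1 at -0.14 (0.0519), Pcx at 0.28 (0.0808), Idh3a at -0.12 (0.107) and Ogdh at 0.23 (0.0539). Without the second SPIO array they were Hk2, Eno2, Dlat, Cs and Acly (0.12 to 0.25, adjusted p = 0.0806 to 0.196). Without the third SPIO array they were Hk2, Eno2, Cs, Ogdh and Acly (0.12 to 0.31, 0.0771 to 0.134) and Idh3a (-0.13, 0.086).

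**Figure D2:**
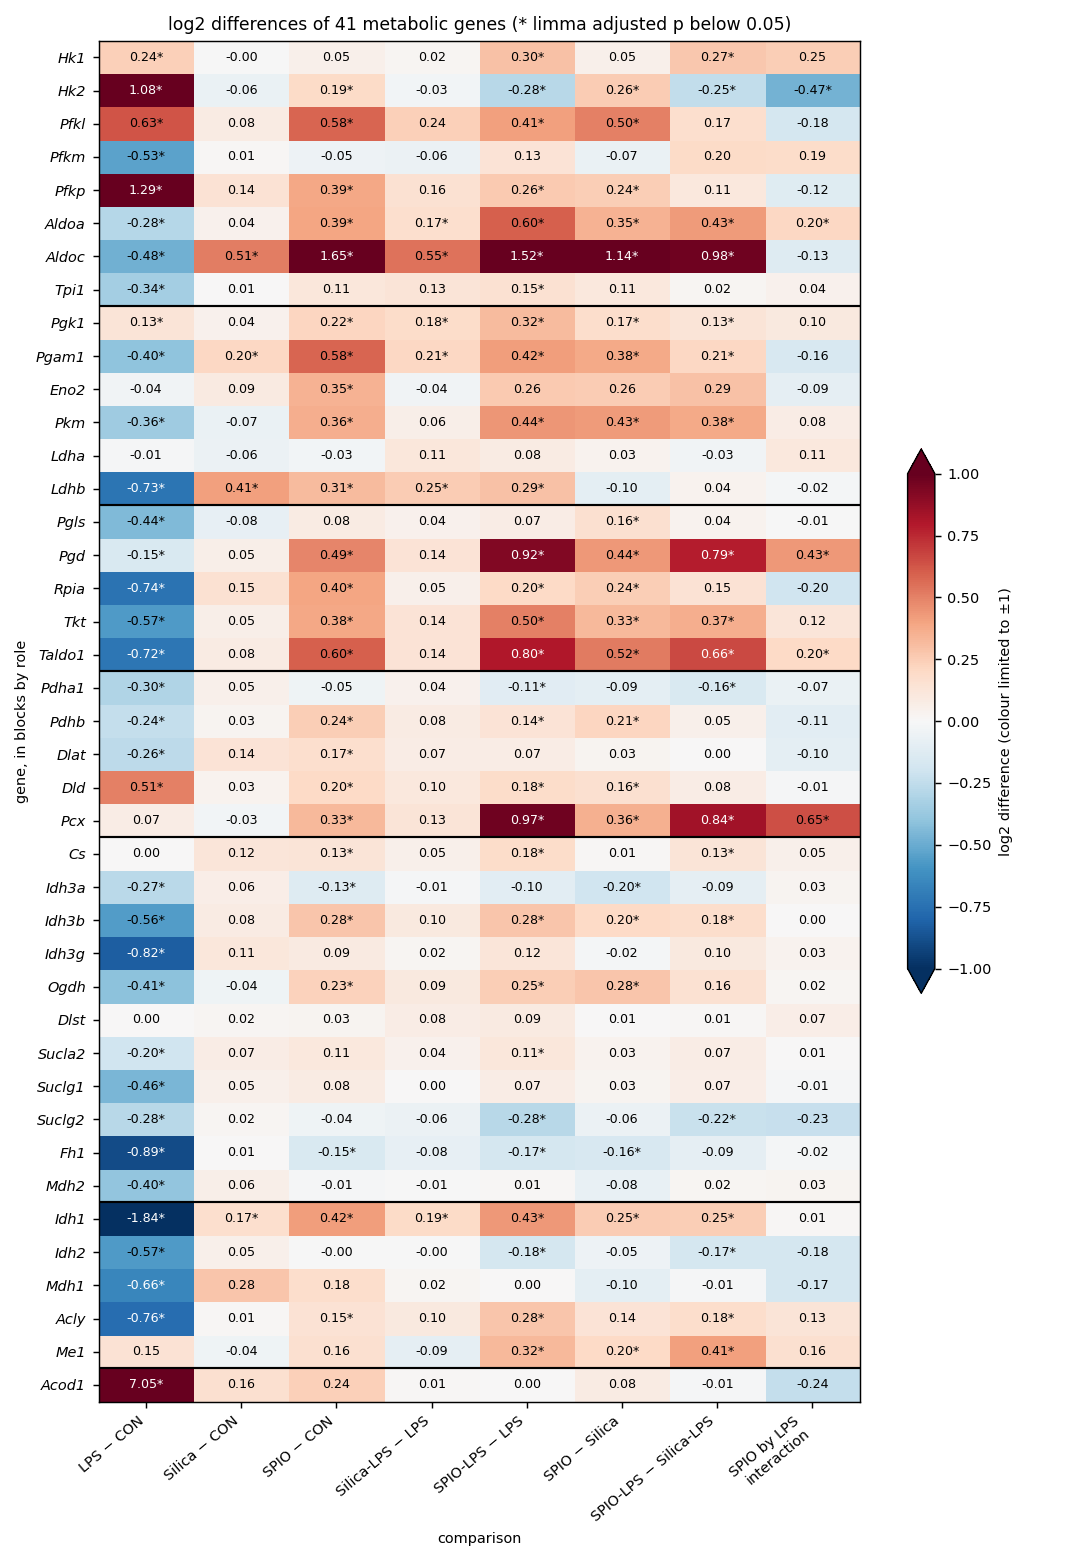
Log2 differences of the 41 genes (rows, in blocks by role from upper glycolysis to Acod1) in 8 comparisons (columns); colour runs from blue (lower) to red (higher) and is limited to ±1, numbers are the differences and stars mark a limma adjusted p below 0.05. The LPS column is mostly blue below the phosphofructokinases (28 genes lower), and both SPIO columns against CON or LPS are mostly red (23 and 24 higher).

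Silica without LPS moved few of these genes and none downward. Against CON, 4 of 41 were higher, 9.76%, where 4.02% of all genes were called (2.45% higher and 1.57% lower), and the medians were 0.05 and 0.00. Aldoc was at 8.52, 8.55 and 8.61 in Silica, above every CON array and below every SPIO array, a log2 rise of 0.51 ± 0.067 (1.42-fold, limma adjusted p = 0.000556). Ldhb read 9.17, 9.16 and 9.08, a rise of 0.41 ± 0.053 (adjusted p = 0.000542). Pgam1 rose by 0.20 ± 0.037 (adjusted p = 0.00532) and Idh1 by 0.17 ± 0.042 (adjusted p = 0.0406). The Idh1 call was lost without any single array of CON or Silica, with differences of 0.13 to 0.19 and adjusted p of 0.0533 to 0.19. Macrophage and neutrophil markers had no calls in this comparison, and of 14 fibroblast markers 4 were higher and 2 lower.

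With LPS added afterwards, the particle effects were measured again on separate arrays. In Silica-LPS against LPS, 6 of 41 genes were higher and none lower, 14.6%, where 2.86% of all genes were called (1.89% higher and 0.976% lower). They held the 4 genes called after silica alone: Aldoc (0.55 ± 0.067, adjusted p = 0.000444), Pgam1 (0.21 ± 0.037), Ldhb (0.25 ± 0.053) and Idh1 (0.19 ± 0.042). Pgk1 (0.18 ± 0.037, adjusted p = 0.0122) and Aldoa (0.17 ± 0.040, adjusted p = 0.0338) were called besides. Aldoc was at 7.51, 7.65 and 7.55 in LPS and at 8.10, 8.19 and 8.06 in Silica-LPS, with no overlap. Aldoc and Pgam1 kept their calls whichever array was left out, and between 2 and 4 of the 6 genes did so in a given refit. Without the first LPS array only these 2 remained, Ldhb being at 0.22 (adjusted p = 0.0613), Idh1 at 0.19 (0.0567), Pgk1 at 0.16 (0.0502) and Aldoa at 0.15 (0.0936). Aldoa was lost without any of the 6 arrays (0.15 to 0.19, adjusted p = 0.0556 to 0.146) and Pgk1 also without the first Silica-LPS array (0.18, 0.0547). Ldhb was also lost without the second LPS array or the second or the third Silica-LPS array (0.24, adjusted p = 0.0642 to 0.0726), and Idh1 without the second or the third LPS array or the first or the third Silica-LPS array (0.17 to 0.20, 0.0508 to 0.102).

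In SPIO-LPS against LPS, 24 of 41 genes were higher and 5 lower, 70.7% in all, where 32.7% of all genes were called (18.2% higher and 14.6% lower). Aldoc alone changed at least 2-fold, against 1.2% of all genes. The medians were 0.18 over the 41 genes and 0.01 over all genes. Of the 23 genes higher after iron oxide alone, 20 were also higher here (87.0% of the 23 and 83.3% of the 24), in arrays that share no sample. The same overlap over all genes is not given, so it cannot be read as particular to these genes. The lower genes shared Fh1 alone. Markers of macrophages (7 lower and 2 higher of 12), fibroblasts (10 lower of 14) and neutrophils (8 lower and 1 higher of 12) moved again, and their part was not tested.

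The largest rises under LPS were those of Aldoc, Pcx, Pgd and Taldo1. Aldoc was at 8.99, 9.06 and 9.22 in SPIO-LPS, 1.52 ± 0.067 above LPS (2.87-fold, limma adjusted p = 1.43e-10). Pcx read 5.33, 5.17 and 5.02 in LPS and 6.14, 5.96 and 6.34 in SPIO-LPS, a rise of 0.97 ± 0.10 (1.96-fold, adjusted p = 2.18e-06). The Pcx signals were low in all groups but clearly apart in this comparison. Pgd was at 13.15, 13.20 and 13.22 in SPIO-LPS against 12.21 to 12.32 in LPS, a rise of 0.92 ± 0.042 (1.90-fold, adjusted p = 2e-10). Taldo1 read 12.41, 12.36 and 12.43, 0.80 ± 0.041 above LPS, and Tkt 12.57, 12.57 and 12.55, 0.50 ± 0.044 above it. For these last genes SPIO-LPS cells were near the level of CON cells, which had 12.27 to 12.38 for Taldo1 and 12.62 to 12.66 for Tkt.

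In glycolysis, Aldoa rose by 0.60 ± 0.040, from 11.79, 11.84 and 11.84 to 12.44, 12.39 and 12.44. Pkm (0.44 ± 0.051, at 10.98 to 11.06), Pgam1 (0.42 ± 0.037), Pfkl (0.41 ± 0.11), Pgk1 (0.32 ± 0.037), Hk1 (0.30 ± 0.057, at 9.26 to 9.38) and Pfkp (0.26 ± 0.046, at 10.24 to 10.26) rose as well. Tpi1 was called at 0.15 ± 0.055 (adjusted p = 0.0429), the only case in any comparison where 1 of the 41 genes was called while its arrays overlapped, and it was lost without either of the first LPS arrays (0.11 and 0.13, adjusted p = 0.171 and 0.152) and without any SPIO-LPS array (0.0562 to 0.133). Hk2 moved the other way, from 10.92, 10.99 and 11.08 in LPS to 10.73, 10.82 and 10.60 in SPIO-LPS, a fall of 0.28 ± 0.069 (adjusted p = 0.00537). Ldhb rose by 0.29 ± 0.053 to 8.28 to 8.29, while Ldha was at 11.73, 11.68 and 11.68, 0.08 ± 0.047 above LPS (adjusted p = 0.223). The 3′ Gapdh control was at 12.41 ± 0.024 (SD) in SPIO-LPS and 12.18 ± 0.04 in LPS, and the 5′ control at 12.01 ± 0.087 and 11.67 ± 0.014. The Gapdh probe set with several symbols did not rise, at 12.4 ± 0.047 in SPIO-LPS and 12.47 ± 0.1 in LPS.

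Among the NADP-linked and cytosolic genes, Idh1 rose by 0.43 ± 0.042 to 10.83, 10.78 and 10.89, far below its 12.17 to 12.29 in CON. Me1 rose by 0.32 ± 0.064 (adjusted p = 0.000946), from 8.43, 8.42 and 8.35 to 8.72, 8.64 and 8.80. Acly rose by 0.28 ± 0.050 to 9.62, 9.78 and 9.70. Idh2 was lower by 0.18 ± 0.053 (adjusted p = 0.0173), at 8.36, 8.23 and 8.37, a call that was lost without the middle LPS or SPIO-LPS array (-0.16 and -0.13, adjusted p = 0.061 and 0.0882). In the citrate cycle Idh3b, Ogdh, Cs and Sucla2 were higher by 0.11 to 0.28, and Suclg2 and Fh1 were lower by 0.28 ± 0.074 and 0.17 ± 0.045. Acod1 was at 14.02, 14.02 and 14.01 in SPIO-LPS, with a difference of 0.00 ± 0.098 at a signal where little further rise could be seen. Of the 29 calls, 20 stood whichever array was left out. Besides Tpi1 and Idh2, the calls of Pdha1 (-0.11 with all arrays) and Sucla2 were each lost without any of 4 arrays (adjusted p = 0.0928 to 0.134), Pdha1 without the second or the third of LPS or the first or second of SPIO-LPS, and Sucla2 without the first or the third of LPS or the second or the third of SPIO-LPS. Without the third SPIO-LPS array Ogdh was at 0.22 (adjusted p = 0.0666), Rpia at 0.16 (0.0586), Dld at 0.15 (0.0569) and Pdhb at 0.12 (0.0726). Rpia was also lost without the second LPS array (0.15, adjusted p = 0.0664), Dld without the third (0.14, 0.0515), Pdhb without the first (0.12, 0.0675) and Suclg2 without the second SPIO-LPS array (-0.21, 0.0507).

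**Figure D3:**
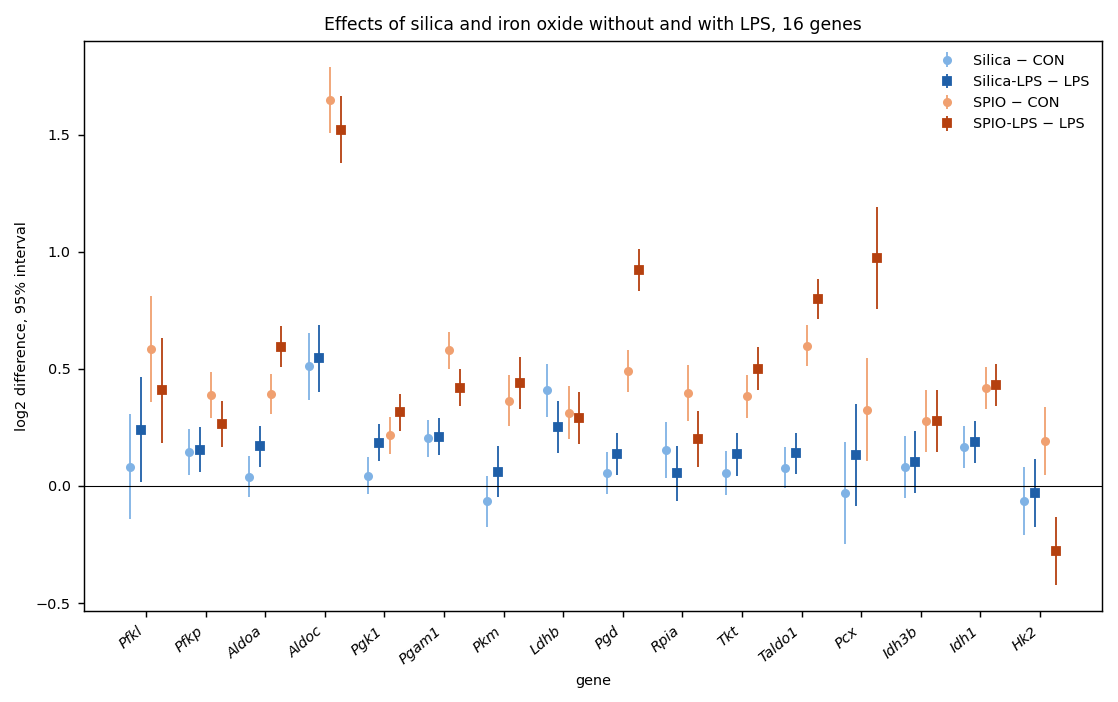
Log2 differences with 95% intervals (limma, 3 arrays per group) for 16 genes on the horizontal axis; circles are particle against CON, squares particle with LPS against LPS, blue silica and orange iron oxide. Aldoc had the largest value of each particle (0.51 and 0.55 after silica, 1.65 and 1.52 after iron oxide), and Hk2 is the gene with iron oxide values on both sides of 0 (0.19 and -0.28).

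Set against each other, the particles differed in many of these genes. In SPIO against Silica, 20 of 41 genes were higher and 2 lower, 53.7% in all, where 26.1% of all genes were called (14.6% higher and 11.6% lower). All 5 pentose phosphate genes were higher with iron oxide: Taldo1 by 0.52 ± 0.041, Pgd by 0.44 ± 0.042, Tkt by 0.33 ± 0.044, Rpia by 0.24 ± 0.056 and Pgls by 0.16 ± 0.047. Aldoc was higher by 1.14 ± 0.067 (2.20-fold, limma adjusted p = 7.99e-09). Pkm and Pgam1 were higher by 0.43 ± 0.051 and 0.38 ± 0.037. Ldhb did not pass between the particles, with a difference of -0.10 and a 95% interval of -0.21 to 0.02, and neither did Ldha. Of the 22 calls, 14 stood whichever array was left out. Those of Hk2, Pgls, Dld, Pcx, Idh3b, Ogdh, Fh1 and Me1 were each lost in some refit. The Pgls call was lost without the last Silica array (0.16, adjusted p = 0.0599) and without the second or the third SPIO array (0.13 and 0.15, adjusted p = 0.0919 and 0.0645).

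In SPIO-LPS against Silica-LPS, 15 genes were higher and 4 lower, 46.3% in all, where 25.1% of all genes were called (12.2% higher and 12.9% lower). The higher genes were led by Aldoc (0.98 ± 0.067, limma adjusted p = 3.43e-08), Pcx (0.84 ± 0.10), Pgd (0.79 ± 0.042) and Taldo1 (0.66 ± 0.041). Pgd stood at 12.41, 12.39 and 12.40 in Silica-LPS, well apart from its 13.15 to 13.22 in SPIO-LPS. Me1 (0.41 ± 0.064) and Hk1 (0.27 ± 0.057) were also higher, and Hk2, Suclg2, Idh2 and Pdha1 were lower by 0.25 ± 0.069, 0.22 ± 0.074, 0.17 ± 0.053 and 0.16 ± 0.041. The lower calls of Hk2, Suclg2 and Idh2 were each lost without single arrays: without the third SPIO-LPS array Hk2 was at -0.19 (adjusted p = 0.074), without the second Suclg2 at -0.16 (0.174) and Idh2 at -0.13 (0.116), and without the first Silica-LPS array they were at -0.22 (0.0605), -0.20 (0.114) and -0.16 (0.0754). Suclg2 was also lost without the second or the third Silica-LPS array or the first SPIO-LPS array (-0.24 to -0.20, adjusted p = 0.0561 to 0.111), and Idh2 without the third Silica-LPS array (-0.17, 0.0674). Higher calls of Pgk1, Cs, Idh3b and Acly were also lost in some refits, so that 12 of the 19 calls stood whichever array was left out. Of the genes higher in SPIO than in Silica, 12 of 20 (60.0%) were also higher with LPS, which is 80.0% of the 15. This overlap, too, is not given over all genes.

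The response to LPS was then compared between cells with and without particles. In Silica-LPS against Silica, 8 of 41 genes rose and 27 fell (85.4%), where 57.3% of all genes were called (21.5% higher and 35.8% lower), and with cyclic loess the split was 11 and 21. In SPIO-LPS against SPIO, 10 rose and 26 fell (87.8%), where 64.1% were called (27.3% higher and 36.7% lower), and with cyclic loess 13 rose and 23 fell. Across the 3 LPS responses, which share no arrays, 7 of the 41 genes rose each time (17.1%: Hk1, Hk2, Pfkl, Pfkp, Pgk1, Dld and Acod1) and 26 fell each time (63.4%), where 15.8% of all genes rose and 31.8% fell each time. With cyclic loess 11 rose each time (26.8%), the added ones being Ldha, Cs, Dlst and Me1, and 17 fell (41.5%), where 20.8% and 24.3% of all genes did. Cs and Dlst, which passed in none of the responses as deposited, thus depend on the scaling, and Eno2 passed in none as deposited. Pgd was the only gene called in both directions, lower without particles, where the call was lost with cyclic loess, and higher after iron oxide. The log2 difference of Idh1 was -1.84 without particles, -1.82 after silica and -1.83 after iron oxide.

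No gene of the 41 passed the interaction of silica with LPS at a limma adjusted p below 0.05 (smallest adjusted p 0.593), and 3 had an unadjusted p below 0.05. In that test 0.0161% of all genes were called, 0.00807% higher and 0.00807% lower. In the interaction of iron oxide with LPS, 4 genes were called higher and 1 lower (12.2%), where 8.80% of all genes were called (3.73% higher and 5.07% lower). With cyclic loess there were 2 higher (Pgd and Pcx) and 2 lower (Hk2 and Pgam1).

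Pgd had the lowest adjusted p. LPS lowered it by 0.15 ± 0.042 without particles and raised it by 0.28 ± 0.042 after iron oxide (adjusted p = 2.13e-05), an interaction of 0.43 ± 0.059 (adjusted p = 0.000172). Its 4 probe sets gave interactions of 0.30 to 0.43, all called. For Pcx, LPS gave 0.07 ± 0.10 without particles and 0.72 ± 0.10 after iron oxide (adjusted p = 1.31e-05), from 5.53, 5.41 and 5.34 in SPIO, an interaction of 0.65 ± 0.15 (adjusted p = 0.00902). Hk2 rose with LPS in both settings, by 1.08 ± 0.069 without particles and by 0.61 ± 0.069 after iron oxide (adjusted p = 8.62e-07). Its interaction was -0.47 ± 0.098 (adjusted p = 0.00522), so that SPIO-LPS cells, at 10.60 to 10.82, lay between SPIO and LPS cells. These 3 genes kept their interaction in every refit that left out an array.

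Aldoa and Taldo1 also passed, at 0.20 ± 0.057 (adjusted p = 0.0366) and 0.20 ± 0.058 (adjusted p = 0.043). Their calls were lost when any of 9 arrays was left out: the second or the third of CON, the first or second of LPS, any of SPIO, and the first or the third of SPIO-LPS. Without them Aldoa was at 0.18 to 0.21 (adjusted p = 0.0551 to 0.0889) and Taldo1 at 0.17 to 0.21 (0.0658 to 0.103). LPS lowered Taldo1 by 0.72 ± 0.041 without particles and by 0.52 ± 0.041 after iron oxide. For Aldoa the fall with LPS was 0.28 ± 0.040 without particles, and after iron oxide the difference was -0.08 ± 0.040 (adjusted p = 0.0938), though 2 of its 4 probe sets were called lower there, at -0.23 and -0.13. Hk1 had an interaction of 0.25 ± 0.081, which did not pass.

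**Figure D4:**
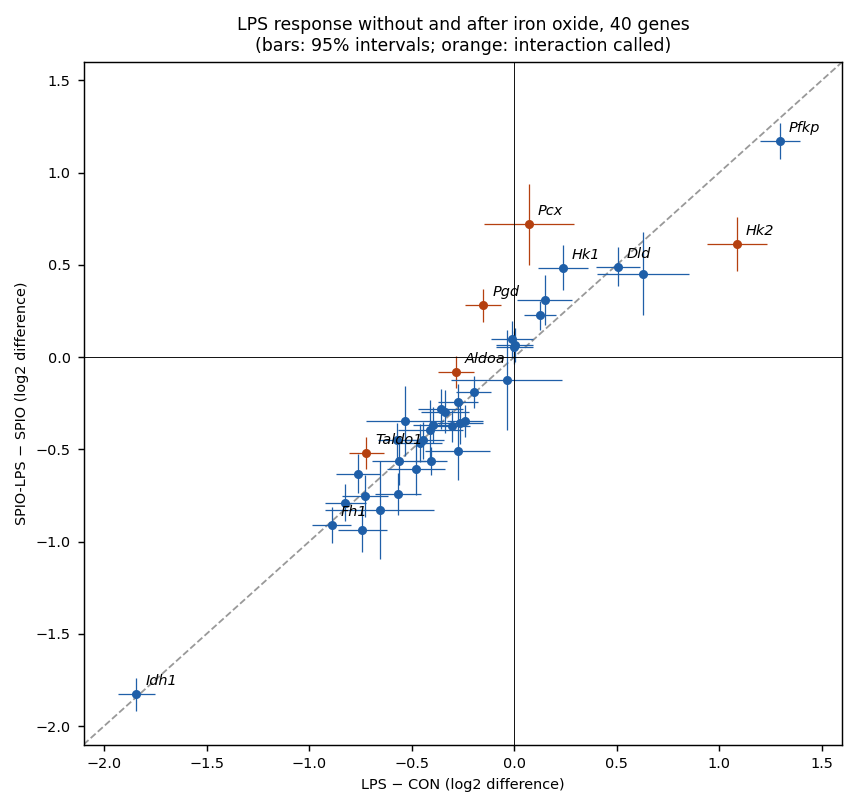
Log2 difference of LPS against CON (horizontal axis) and of SPIO-LPS against SPIO (vertical axis) for 40 genes, Acod1 being left out at 7.05 and 6.81; bars are 95% intervals, the dashed line marks equal responses and orange points are the 5 genes with a called interaction. Most genes lie near the line, Hk2 below it (1.08 and 0.61), and Pgd (-0.15 and 0.28) and Pcx (0.07 and 0.72) above it.

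A list of 46 neighbouring genes (transporters, regulators, further citrate cycle subunits and carriers), of which 31 were measured, was followed beside the enzymes. In LPS against CON, 9 rose and 21 fell (7 and 18 with cyclic loess), 96.8% in all, where 58.2% of all genes were called. Pfkfb3 makes the activator of phosphofructokinase, and it rose from 7.37, 7.41 and 7.32 to 11.32, 11.22 and 11.22, by 3.89 ± 0.048 (limma adjusted p = 3.02e-18). Among glucose transporters, Slc2a1 rose by 1.41 ± 0.045, from 9.57 to 9.69 in CON to 10.98 to 11.10 in LPS, and Slc2a3 fell by 1.72 ± 0.069. Got1, a transaminase of the malate-aspartate shuttle, and Pdk4, a kinase that inhibits pyruvate dehydrogenase, fell by 1.64 ± 0.060 and 1.58 ± 0.13. All 5 further citrate cycle genes were lower (Aco1, Sdha, Sdhb, Sdhc and Sdhd), though 3 with cyclic loess, and the fall of Sdha was 0.20 ± 0.043. Mpc1, a subunit of the mitochondrial pyruvate carrier, fell by 0.26 ± 0.042.

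After iron oxide alone, 13 of these neighbours were higher and 3 lower (51.6%, against 33.8% of all genes). Mpc1 was at 10.97, 11.08 and 11.01 in CON and at 11.76, 11.78 and 11.80 in SPIO, a rise of 0.76 ± 0.042 (limma adjusted p = 1.91e-09). Pdk4 moved the other way, from 7.52, 7.56 and 7.43 to 6.03, 5.79 and 6.01, a fall of 1.55 ± 0.13 (adjusted p = 1.33e-07). The lactate transporter gene Slc16a1 rose by 0.43 ± 0.058, Slc2a1 by 0.41 ± 0.045 and Sdha by 0.32 ± 0.043. After silica alone (9.68% called, against 4.02% of all genes) 2 were higher, Pfkfb3 by 0.27 ± 0.048 and Mpc1 by 0.22 ± 0.042, and 1 was lower, Pdk4 by 0.68 ± 0.13. With LPS (12.9%, against 2.86% of all genes) silica gave 3 higher (Gpt2 by 0.49 ± 0.073, Mpc1 by 0.21 ± 0.042 and Slc2a1 by 0.19 ± 0.045) and 1 lower (Pdk4 by 0.72 ± 0.13).

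In SPIO-LPS against LPS, 13 neighbours were higher and 6 lower (61.3%, against 32.7% of all genes). Pfkfb3 was at 9.75, 9.78 and 9.70 in SPIO-LPS, 1.51 ± 0.048 below LPS (2.84-fold, limma adjusted p = 6.29e-12), while silica left it at 11.16 to 11.26. Pdk4 fell by 1.82 ± 0.13 to 3.70, 4.25 and 4.35, Mpc1 rose by 0.75 ± 0.042, and Gpt2, an alanine transaminase, rose by 0.98 ± 0.073. The interaction of iron oxide with LPS was called for 5 of the 31 neighbours (16.1%, against 8.80% of all genes). Pfkfb3 had the largest, at -1.78 ± 0.068 (adjusted p = 3.3e-10), followed by Slc16a1 at -0.79 ± 0.082 and Gpt2 at 0.75 ± 0.10. Slc16a1 rose with LPS without particles, by 0.38 ± 0.058, and fell by 0.41 ± 0.058 after iron oxide. Rpe and Bpgm, named here to complete the count and after their values were seen, were at -0.43 ± 0.068 and -0.45 ± 0.13.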

How the data were processed

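Per the labels and the submitters' processing notes, the authors deposited log2 RMA signals (background-corrected, normalized and summarised per probe set) for 18 arrays in 6 groups of 3; which software made them is not given in the sources used here. Of 22690 probe sets, 20380 carried 1 symbol, 691 several and 1555 none, 64 being controls; symbols were updated by gene ID. The brightest probe set stood for each of 12393 genes. One limma fit (version 3.58.1, R 4.3.3) of 6 group means was made over all genes, with Benjamini-Hochberg adjustment within each comparison and a threshold of 0.05, and was tested on simulated data. All adjusted p-values are from this fit unless another setting is named, and ± is its SE except where SD is written. The array number limits the precision: the median 95% half-width was 0.17 (0.24 for interactions). Levels of different genes were not compared.

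The members and lists were chosen with earlier results of these data known. Any member could be named; values by array were given for called members with the largest change by role (up to 5 rises and 5 falls per comparison) and for a set of fixed genes, and of neighbouring genes up to 3 per comparison and a few fixed ones, among them Slc25a1 and Mpc2, which were not measured. Alternatives were a replicate block, other samples, priors, filters, probe set rules, scaling, array weights and leaving out each array. Same-numbered arrays did not deviate together (r -0.31 to 0.19 over 45 pairs), so the signals gave no sign that the numbers pair samples. With 3 arrays per group this cannot show whether same-numbered cultures shared a mouse or a day. Array suffixes of 8 chosen probe sets (_s_at and _x_at) mark possible cross-hybridisation, namely those of Idh1, Idh3b, Aldoa, Pgk1, Pgd, Tkt, Dlat and Mdh1.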

Additional observations from a re-analysis of the deposited data

Results flagged for a closer look

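The response to LPS differed between cells without particles and cells given iron oxide, by a limma interaction test over 12393 genes, for 5 of the 41 genes. This was 12.2% of them, not far from the 8.8% called among all genes. The interaction was -0.47 for Hk2 (adjusted p = 0.00522), 0.2 for Aldoa (0.0366), 0.43 for Pgd (0.000172), 0.2 for Taldo1 (0.043) and 0.65 for Pcx (0.00902), on the log2 scale. Every SPIO-LPS array of Pgd and Pcx lay above every array of the other 5 groups. Fibroblast markers summed to 28037 to 28954 in SPIO-LPS and to 34456 to 36084 in LPS, and neutrophil markers to 17842 to 18412 and 24681 to 25075; their part in these interactions was not tested. The Aldoa and Taldo1 interactions were lost in several of the other settings, given with the processing.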

How the results depend on the processing

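Counts of called genes moved by over 1.5 times in few settings. Fitting only the groups compared gave 2 called genes in Silica against CON (4 in the fit of all 6 groups), 1 in Silica-LPS against LPS (6), 19 in SPIO-LPS against LPS (29) and 3 in the interaction of iron oxide with LPS (5). A variance trend with robust prior gave 10 in Silica-LPS against LPS, and testing each probe set gave 3 interactions. Leaving out 1 array gave 35 to 36 in LPS against CON, 3 in Silica against CON, 18 to 23 in SPIO against CON, 2 to 4 in Silica-LPS against LPS, 24 to 27 in SPIO-LPS against LPS, 17 to 20 in SPIO against Silica, 14 to 16 in SPIO-LPS against Silica-LPS, 35 to 36 in Silica-LPS against Silica, 36 in SPIO-LPS against SPIO, 0 for the silica interaction and 3 to 6 for that of iron oxide. With the mean of probe sets, Idh3a turned to 0.109 in SPIO against CON and 0.017 in SPIO against Silica, and Pdhb to 0.003 in Silica-LPS against Silica. With cyclic loess Aldoa turned to 0.014 in Silica-LPS against Silica. The cause was not tested.

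With the replicate number as a block, though the signals gave no sign that the numbers pair the samples, the counts were 35 in LPS against CON, 4 in Silica against CON, 24 in SPIO against CON, 5 in Silica-LPS against LPS, 26 in SPIO-LPS against LPS and 4 for the iron oxide interaction. Over 216 calls of single genes in all comparisons, the block lost 7, cyclic loess lost 22 and reversed 1, fitting only the groups compared lost 38, and the trend with robust prior lost none. Aldoa and Taldo1 lost the interaction in fits of only those groups (adjusted p = 0.0911 and 0.106), per probe set (0.0552 and 0.0627) and with cyclic loess (0.0735 and 0.0856), and Aldoa with the block (0.0577). Acod1 signals under LPS were near the array maximum, which limits differences there.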
